A study of Rattus norvegicus with 2 samples.

Results

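The core circadian clock genes of rat liver were examined here: the activators Bmal1 (listed as Arntl in older annotations), Clock and Npas2, and the repressors Per1, Per2, Per3, Cry1, Cry2, Nr1d1 and Nr1d2. The 10 genes were taken by name, and every probe set annotated to exactly 1 of them was used. All 10 were represented on the array, by 18 probe sets, among 14217 genes represented in all. RNA from the livers of male Wistar rats, 2 months old, was hybridized to 2 Affymetrix arrays. On 1 array was liver of rats that had been fasted for 18 h, and on the other liver of rats fasted in the same way, given 5 ml of olive oil (16 ml per kg) as a bolus and killed 4 h later. The labels do not give the clock time of killing for any rat, nor how many animals contributed to an array. They also leave unsaid whether the fasted rats were kept for those 4 h. A difference in clock time or in hours without other food, if there was one, cannot be told apart from the oil in these data.

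The circadian clock of mammalian cells is a transcriptional feedback loop. BMAL1 pairs with CLOCK or its relative NPAS2 and activates genes through E-box sequences, among them those of the period and cryptochrome proteins, which in turn block the activating pair. The nuclear receptors REV-ERB-alpha and REV-ERB-beta, the products of Nr1d1 and Nr1d2, close a further loop by repressing Bmal1 through ROR elements, which the ROR receptors use to activate it. The liver carries one of the best-studied peripheral clocks, which sets the daily course of many metabolic genes and can be shifted by feeding and by glucocorticoid hormones.

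The promoters of a few of these genes show the sequences through which the loop is known to work. Windows of 250 bases before to 50 bases after annotated starts were available from RefSeq (GRCr8) for 9 of the 10 genes, all but Cry1. The 11 windows were searched on both strands for 5 motifs. These were the E-box CACGTG, the related E'-box CACGTT, the D-box in the forms TTACATAA, TTATGTAA, TTACGTAA and TTATATAA, the ROR element, known by its name, and the cAMP response element TGACGTCA. The 250 bases before the start are shown for Bmal1, as the target of the ROR loop, for both annotated starts of Nr1d1, as the repressor in that loop, and for Per2, which held 2 of the motifs. Capitals mark the motif matches, and each sequence runs 5′ to 3′ on the strand of the gene. 
Bmal1, chr1:176766078-176766327, plus strand: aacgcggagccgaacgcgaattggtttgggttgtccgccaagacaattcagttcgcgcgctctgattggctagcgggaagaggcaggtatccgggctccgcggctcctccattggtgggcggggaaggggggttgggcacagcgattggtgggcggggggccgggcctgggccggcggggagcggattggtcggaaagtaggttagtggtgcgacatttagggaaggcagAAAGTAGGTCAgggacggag
Nr1d1, outer start, chr10:84231813-84232062, minus strand: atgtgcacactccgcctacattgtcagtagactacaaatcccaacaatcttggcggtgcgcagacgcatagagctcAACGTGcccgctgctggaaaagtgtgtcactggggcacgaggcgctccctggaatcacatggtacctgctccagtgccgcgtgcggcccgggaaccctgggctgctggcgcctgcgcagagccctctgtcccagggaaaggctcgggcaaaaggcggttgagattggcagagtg
Nr1d1, inner start, chr10:84229455-84229704, minus strand: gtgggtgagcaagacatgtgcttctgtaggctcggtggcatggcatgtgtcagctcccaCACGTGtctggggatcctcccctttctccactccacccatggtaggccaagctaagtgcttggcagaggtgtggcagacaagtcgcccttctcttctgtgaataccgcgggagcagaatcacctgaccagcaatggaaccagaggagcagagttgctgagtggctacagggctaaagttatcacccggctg
Per2, chr9:99496994-99497243, minus strand: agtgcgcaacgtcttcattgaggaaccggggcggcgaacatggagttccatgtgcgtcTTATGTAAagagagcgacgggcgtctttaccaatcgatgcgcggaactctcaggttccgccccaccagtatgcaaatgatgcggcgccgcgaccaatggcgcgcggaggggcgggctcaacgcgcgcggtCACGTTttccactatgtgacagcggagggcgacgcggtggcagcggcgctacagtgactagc

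Bmal1 held a ROR element ending 10 bases before its start, a motif found in 0.356% of all 33469 windows. Nr1d1 held an E-box at its inner start, as did 6.42% of all windows, and an E'-box on the opposite strand at its outer start. Per2 held an E'-box 62 to 57 bases before its start and a D-box 192 to 185 bases before it. The E'-box occurred in 4.83% and the D-box in 1.48% of all windows. Cry2 was the only other one of the 9 genes with a match, an E'-box. No 2 matches overlapped. The cAMP response element, present in 1.83% of all windows, was not found in the 11 windows, which says only that these letters are not there. The window listed for Per1 belongs to a start inside the annotated span of the gene. A match of letters describes the sequence and is not a measured binding site.

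The values are signal intensities on a linear scale, 1 per probe set and array. Differences are given as log2 of the olive oil signal minus log2 of the fasted signal, with a floor of 12.8, which is the 25th percentile of the table, under all signals. Probe sets whose log2 signal, averaged over the arrays, was at least 5.37, the median, are called measured. Where a gene had several probe sets, the brightest stands for it and the others are given beside it. With 1 array per group there is no replicate and no test, and a fixed size of 1.5-fold (0.58 on the log2 scale) was used to describe differences. As a measure of how far probe sets disagree, measured probe sets of one gene scattered in their log2 difference with a pooled SD of 0.35 over 2290 genes. This scatter holds no variation between rats. Signals of different probe sets are not comparable with each other in level, so only the arrays are compared within a probe set.

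Hepatocyte markers were bright on both arrays, with albumin (Alb) at 17154.4 and 17983.9. The summed signal of 7 hepatocyte marker genes was 93999 (fasted) and 94294 (olive oil). That of 5 Kupffer cell markers was 3517 and 3934. Summed over 4 endothelial and 7 stellate cell markers, the olive oil array was 1.12 and 1.10 times the fasted one, and over 4 cholangiocyte and 5 lymphocyte markers, mostly dim, 0.742 and 0.783 times. Such sums are carried by the brightest probe sets, and single markers went both ways, with log2 differences from -0.54 to 0.61 for the endothelial and from -0.59 to 0.84 for the stellate cell markers. For beta-actin, the 3' signal was 2.63 times the 5' signal on the fasted array and 3.20 times on the olive oil array, a measure of how intact the RNA was. The part of these differences in the clock results was not tested. In whole liver RNA, fewer cells of a type and less RNA per cell cannot be told apart.

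**Figure D1:**
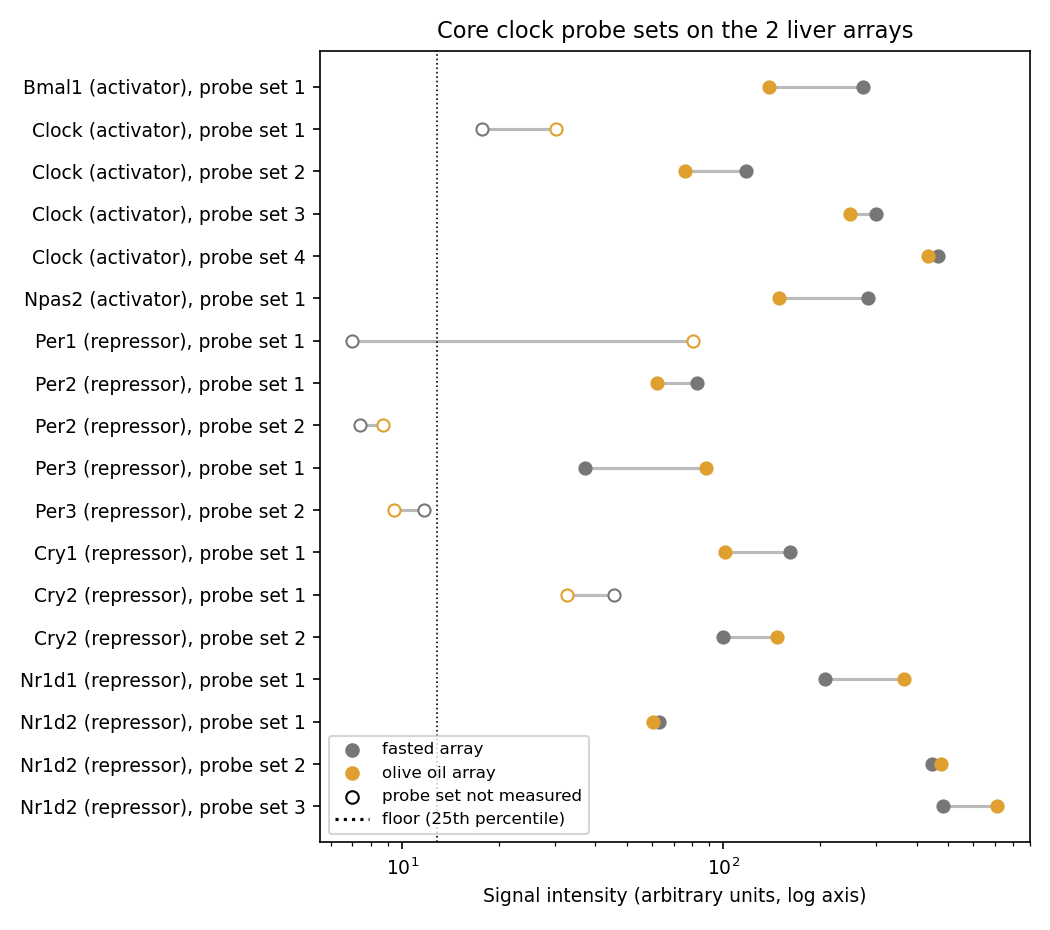
Signal intensity (log axis, arbitrary units) of all 18 core clock probe sets on the fasted array (grey) and the olive oil array (orange), with open circles for probe sets that did not reach the median brightness and a dotted line at the floor of 12.8. Bmal1 and Npas2 were lower and Per3 and Nr1d1 higher on the olive oil array, and Per1 went from 7.0, below the floor, to 80.5; levels of different probe sets are not comparable.

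The activators Bmal1 and Npas2 had lower signals in the olive oil array, while the repressors differed in both directions. Of the 9 measured genes, 2 were higher by 1.5-fold or more in the olive oil array (Per3 and Nr1d1), 3 were lower by as much (Bmal1, Npas2 and Cry1) and 4 lay between (Clock, Per2, Cry2 and Nr1d2). Of the 9209 measured genes, 9.44% were higher by this size and 10.1% lower, or 19.5% together. At 2-fold, 1 of the 9 genes was higher and none lower, against 3.21% and 2.92% of all measured genes. That gene was Per3, whose fasted signal of 37.0 lay under 41.4, the signal at the brightness filter. Per3 thus counts as measured only through the olive oil array, where it was high, and this limits both counts of higher genes. The 10th gene, Per1, was too dim on the fasted array to count as measured and is described by its signals. The median log2 difference over the 9 genes was -0.10, beside -0.01 for all measured genes, a value that hides opposite directions.

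The 3 activators were all lower after olive oil, with log2 differences from -0.97 to -0.10 and a median of -0.92. Among all measured genes, 51.7% had a negative difference. Over their 6 probe sets, the 5 that were measured had a negative difference. The repressors ranged from -0.67 to 1.26 over the 6 measured ones, with a median of 0.55, and 4 of the 6 were positive. Both figures rest in part on the brightest probe sets of Cry2 and Nr1d2, between which that median lies. The dimmer, unmeasured probe set of Cry2 had -0.48, and the other probe sets of Nr1d2 had 0.09 and -0.06. The upper end of 1.26 is Per3, which counts as measured only through the olive oil array, where it was high. This also limits the median and the count of positive repressors. The median of the repressors exceeded that of the activators by 1.47 on the log2 scale. The sides overlapped all the same, because Cry1 and Per2 lay below Clock, the highest of the activators. Counting Per1, with its fasted signal raised to the floor, the median of the 7 repressors was 0.56.

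Bmal1 encodes the activator that the loop cannot do without. Its only probe set gave a signal of 272.6 on the fasted and 138.9 on the olive oil array, 1.96-fold lower. The log2 difference of -0.97 was 2.79 times the scatter between probe sets of one gene, and 3.18% of all measured genes were as low or lower. The suffix of this probe set marks probes shared by several transcripts of a gene, and no second probe set was there to compare. The ROR element shown above stands in the promoter of this gene.

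Npas2, the CLOCK relative that can take its place beside BMAL1, went the same way. Its single probe set read 283.0 on the fasted and 149.7 on the olive oil array, 1.89-fold lower, with a log2 difference of -0.92. As low or lower were 3.69% of all measured genes.

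Clock itself, the partner of BMAL1 with histone acetyltransferase activity, differed little on its brightest probe set, at 465.3 and 434.1, 1.07-fold lower. Its other measured probe sets read 299.3 and 248.1, 1.21-fold lower, and 117.9 and 76.2, 1.55-fold lower. The 3 thus had one sign but ranged from -0.63 to -0.10 on the log2 scale, the dimmest with the largest difference. The remaining, dim probe set, which was not measured, went the other way, from 17.7 to 30.2. The log2 difference of Npas2 was lower than that of Clock by 0.82, or 1.76-fold.

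Per1, a period gene known as an early responder to hormonal signals, was too dim on the fasted array to be given a firm size of difference. Its only probe set read 7.0 on the fasted array, under the floor, and 80.5 on the olive oil array. The mean over both arrays stayed under the median brightness, so that Per1 enters none of the counts of measured genes. With the fasted signal raised to the floor the array values differed by 6.29-fold, a log2 difference of 2.65. That size depends on how dim signals are treated. It was 0.88 when the floor was set to the 50th percentile, 2.07 when 16 was added to every signal and 3.52 with the deposited values as they stand, and positive in each case.

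Per3, a period gene that is not required for the rhythm itself, was the measured member with the largest difference. On its brighter probe set it read 37.0 on the fasted and 88.5 on the olive oil array, 2.39-fold higher. Its log2 difference of 1.26 was reached or exceeded by 1.62% of all measured genes. The other probe set of Per3 was under the floor on both arrays, at 11.7 and 9.4, and gives no value for comparison. The fasted signal of 37.0 was itself under the median brightness, and the difference was 1.02 when the floor was set to the 50th percentile and 0.98 when 16 was added to every signal.

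Per2, the period gene most needed for the rhythm, lay within 1.5-fold. Its measured probe set read 82.9 and 62.3, 1.33-fold lower, with a log2 difference of -0.41, and 16.9% of all measured genes were as low or lower. The second probe set was under the floor on both arrays, at 7.4 and 8.7. The log2 difference of Per3 exceeded that of Per2 by 1.67, or 3.18-fold.

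The cryptochromes, the strongest repressors of the BMAL1 and CLOCK pair, lay on opposite sides. Cry1 read 161.2 on the fasted and 101.0 on the olive oil array, 1.60-fold lower, with a log2 difference of -0.67. Cry2 read 100.1 and 146.6 on its brighter probe set, 1.46-fold higher, just inside the 1.5-fold size. Its second probe set, slightly too dim to be measured, went from 45.7 to 32.7, 1.40-fold lower. The log2 difference of Cry2 on its brighter probe set exceeded that of Cry1 by 1.22, or 2.34-fold. On the dimmer probe set of Cry2 the difference was negative, as for Cry1.

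Both REV-ERB genes had a higher signal after olive oil where they were brightest. Nr1d1, which encodes REV-ERB-alpha, read 206.9 on the fasted and 366.7 on the olive oil array, 1.77-fold higher, with a log2 difference of 0.83. Among all measured genes, 4.94% were as high or higher. Nr1d2, which encodes REV-ERB-beta, read 485.3 and 714.9 on its brightest probe set, 1.47-fold higher. Its other 2 probe sets showed almost no difference, with 446.1 and 475.9 on one and 63.1 and 60.5 on the other, so that its log2 differences ranged from -0.06 to 0.56. The mean over the 3 was 0.20.

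**Figure D2:**
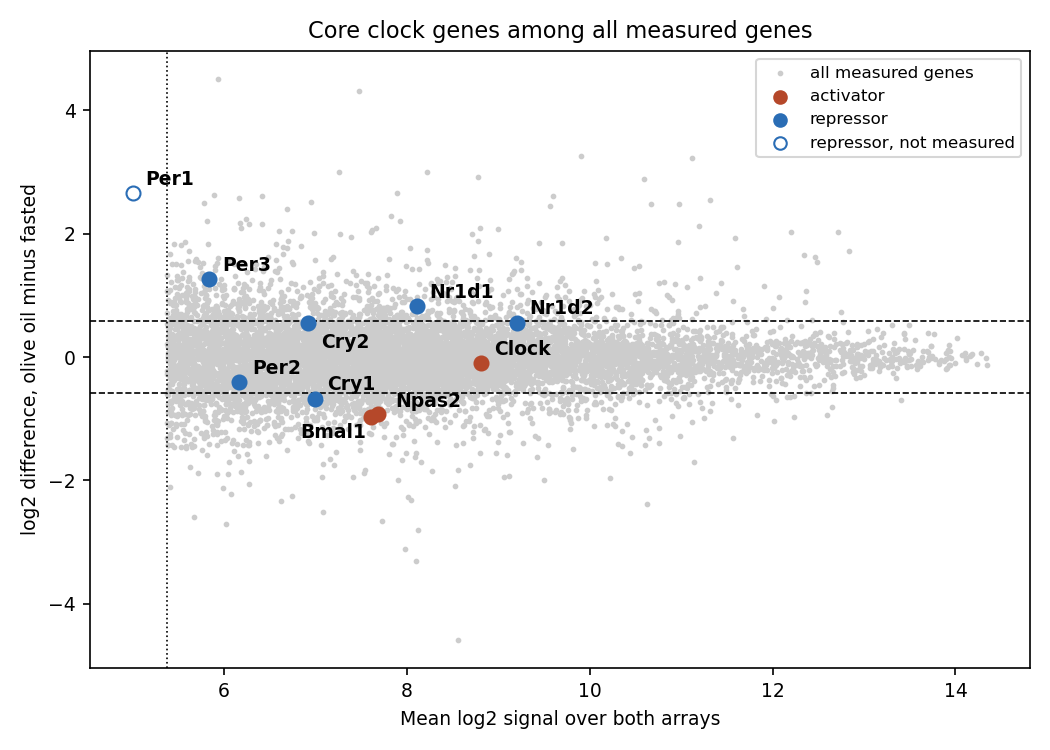
The log2 difference (olive oil minus fasted) of the 10 core clock genes against their mean log2 signal, over all 9209 measured genes in grey, with dashed lines at 1.5-fold and a dotted line at the brightness filter. Bmal1 and Npas2 lie together near -0.97 and -0.92, Per3 and Nr1d1 lie above the upper line, and Per1, open, lies left of the filter at 2.65.

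The same genes can be set in order by the element through which the loop is known to drive them, since the activators and Cry1 respond to ROR elements and the other repressors mainly to E-boxes. This order follows known roles and not the matches described above. Among the core genes with a searched window, only Bmal1 held a ROR element, and only Nr1d1, Per2 and Cry2 held an E-box or E'-box. All 5 genes of the ROR element list (Bmal1, Clock, Npas2, Cry1 and Nfil3) were measured, all had a negative difference, as had 51.7% of all measured genes, and 3 were at least 1.5-fold lower, beside 10.1% of all. Their median log2 difference was -0.67, and the range ran from -0.97 to -0.10. Of the 10 measured genes on the list of E-box targets, 3 were higher by 1.5-fold or more, 1 was lower by as much and 6 lay between. Among all measured genes 9.44% were higher and 10.1% lower, and the median of the list was 0.48. Per3, among the 3 higher genes, counts as measured only through the olive oil array, where it was high. This limits the count of higher genes and the median. Cry1 stands on both lists, and core genes make up 4 of the 5 and 6 of the 10, so that this order repeats the values above and is no separate evidence.

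Of the transcription factors of the secondary loops, which bind D-boxes and ROR elements or repress at E-boxes, Dbp stood out. Dbp, an activator at D-boxes and a classical E-box target, read 43.0 on the fasted and 123.9 on the olive oil array, with a log2 difference of 1.53. Tef, of the same family, was 1.33-fold higher on its brightest probe set, at 146.8 and 195.3, and 0.42 on another on the log2 scale. Hlf, the third of that family, differed by -0.04. Nfil3, which represses at D-boxes, read 741.1 and 631.4, a log2 difference of -0.23. Bhlhe40, a repressor at E-boxes, differed by -0.19 and Rora, the ROR receptor that competes with the REV-ERB proteins, by -0.10. Of the 6 measured genes of this list, Dbp alone passed 1.5-fold, and the median was -0.07. Among all measured genes 19.5% lay beyond 1.5-fold, so that the list as a whole was close to that share. Rorb and Bhlhe41 were not measured, and Ciart was not analysed here.

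Of 19 measured genes for enzymes that modify and degrade clock proteins, 2 were higher by 1.5-fold or more, 1 was lower by as much and 16 lay between, with a median of 0.05. This is close to the share over all measured genes, of which 19.5% lay beyond 1.5-fold. The deubiquitinase gene Usp2, itself a rhythmic gene, differed most, at 141.8 and 482.2 on one probe set and 39.8 and 128.4 on the other, or log2 differences of 1.77 and 1.69. Prkaa1, a catalytic subunit of AMP-activated kinase, which marks cryptochromes for degradation, was 1.60-fold higher on its brightest probe set. Btrc, the F-box protein that leads phosphorylated period proteins to degradation, had log2 differences of -0.86 and -1.01 on its measured probe sets. Its dim, unmeasured probe set had 0.40. The casein kinase genes Csnk1d and Csnk1e, whose products phosphorylate the period proteins, differed by -0.01 and 0.05 on their brightest probe sets. The other probe sets of Csnk1d lay between -0.30 and 0.29, and those of Csnk1e had 0.09 and 0.44.

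Among cofactors and corepressors, 3 of 14 measured genes were lower by 1.5-fold or more and 1 was higher by as much, beside 10.1% and 9.44% of all measured genes, and the median was -0.14. The lower genes numbered 5 with the arrays centred on their medians and 1 with probe sets averaged per gene. The higher one was Ppargc1a, a coactivator of the ROR receptors at Bmal1, at 35.0 on the fasted and 164.2 on the olive oil array on one probe set and 26.6 and 128.2 on another, log2 differences of 2.23 and 2.27. Both fasted signals lay under 41.4, the signal at the brightness filter, so that the gene counts as measured only through the olive oil array. Nrip1, a nuclear receptor corepressor, read 286.7 and 137.6, a log2 difference of -1.06. The acetyltransferase gene Kat2b had a log2 difference of -0.69, with -0.08 on its second probe set. The methyltransferase gene Kmt2a had -0.73 on its brightest probe set but -0.05 and 0.70 on its dimmer measured ones. Nampt, an E-box target that makes the NAD precursor used by sirtuins, was 1.42-fold higher at 857.3 and 1214.7, and 2.17-fold higher on its second probe set.

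A further list held 9 genes, all measured, of the CREB, glucocorticoid, heat shock and serum signals known to reach the period genes, including targets that only report such a signal. Of these, 2 were higher by 1.5-fold or more and none was lower by as much, beside 9.44% and 10.1% of all measured genes, and the median was 0.40. Fkbp5, a glucocorticoid receptor target, read 248.7 on the fasted and 1043.1 on the olive oil array, and its probe sets had log2 differences of 2.07 and 2.11. Hsf1, the heat shock transcription factor, read 101.0 and 154.0, a log2 difference of 0.61, just beyond 1.5-fold. With centred arrays, or 16 added to every signal, 1 gene of the list was higher by that size. Nr3c1, the glucocorticoid receptor gene itself, differed by -0.40 on its brightest probe set and by 0.65 on its dimmer one. The part of hormone signals in the clock gene differences was not tested.

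**Figure D3:**
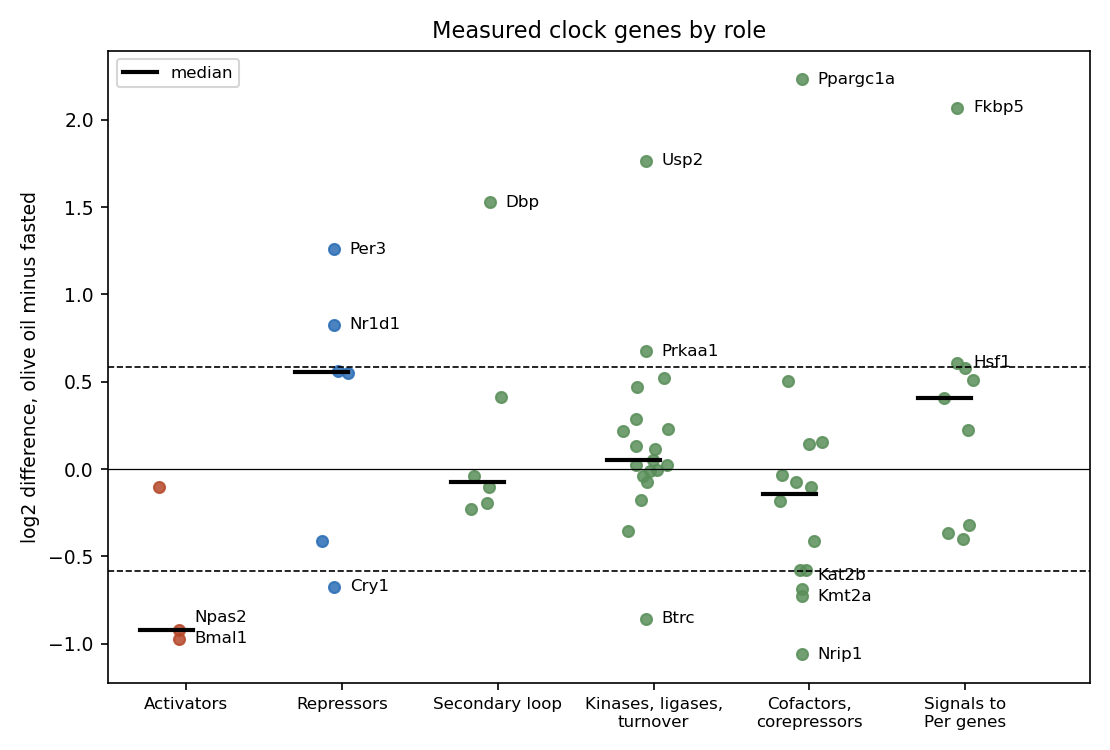
The log2 difference (olive oil minus fasted) of every measured gene in 6 groups of clock genes, 1 point per gene, with the group median as a bar, dashed lines at 1.5-fold and names for genes beyond it. The activators lie at or below -0.10, the repressors spread from -0.67 to 1.26, and beyond the lines lie 19.5% of all measured genes.

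No member changed direction under the other scalings, floors and filters tried. These settings could not bring in the dim probe sets of Cry2 and Clock that went the other way. Each setting used the brightest probe set of a gene or the mean over its measured ones. For Bmal1, Npas2, Cry1 and Nr1d1, with a single probe set each, averaging could alter nothing. Under these 10 alternatives, where a gene kept a value, Bmal1 lay between -1.05 and -0.90, Npas2 between -0.99 and -0.85 and Nr1d1 between 0.75 and 0.85 on the log2 scale. Cry1 stayed between -0.75 and -0.60, Per2 between -0.48 and -0.34 and Cry2 between 0.48 and 0.56. Clock moved from -0.33 to -0.08, Nr1d2 from 0.20 to 0.58 and Per3 from 0.98 to 1.26. Processing shows only how these 2 arrays are read and replaces no replicate.

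**Figure D4:**
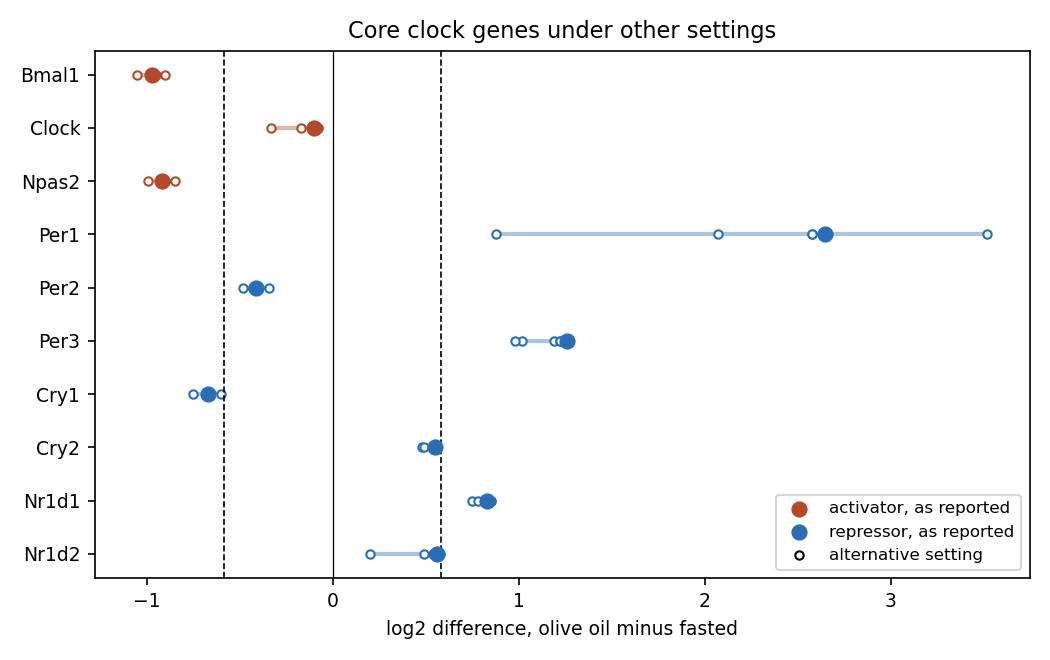
The log2 difference (olive oil minus fasted) of each core clock gene as reported (filled) and under the alternative settings (open), with dashed lines at 1.5-fold. No gene crosses 0, Per1 spreads widest, from 0.88 to 3.52, and Nr1d2 reaches down to 0.20 with the mean over its probe sets.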

How the data were processed

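Liver RNA of 2 groups was measured on 1 array each. The intensity values are the deposited table's, on a linear scale, and were made with Affymetrix Expression Console per the submitters' processing notes, by an algorithm not given in the sources used here. Both arrays had a 2% trimmed mean of 200.1, and their medians were 42.5 (fasted) and 44.7. The 57 control probe sets were left out, and 31042 remained. The table carries no detection calls, and the number of arrays limits the precision.

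Signals under the 25th percentile were set to it before taking log2, and no normalization was added. A probe set was measured from the 50th percentile of mean log2 signal upward, which left 15521 probe sets and 9209 genes. Probe sets were named from the platform annotation where it listed 1 gene (20826; 436 had several and 9780 none), with 20758 symbols updated by gene ID through RefSeq (GRCr8). Members and gene lists were chosen with earlier results of these data known. Named were all 10 members, the measured secondary loop factors, up to 4 genes per other list with the largest differences of at least 1.5-fold, and Csnk1d, Csnk1e, Nampt, Nr3c1 and Fkbp5; some listed genes are not reported here. The functions were tested on simulated arrays. Values were computed with pandas 2.3.3 and numpy 2.4.6 in Python 3.11.15, loess with statsmodels 0.14.6, and plots with matplotlib 3.10.9.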

Additional observations from a re-analysis of the deposited data

How the results depend on the processing

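The scaling was varied (centred medians, quantiles, loess), as were the floor (none, the 50th percentile, or 16 added to all signals), the brightness filter (none or the 75th percentile), the handling of several probe sets (their mean, or none with shared-transcript suffixes) and the size that counts (2-fold or one smaller than 1.5-fold). No member changed sign, but the dim probe sets of Cry2 and Clock with the opposite sign entered none of these settings. The 2 core genes at least 1.5-fold higher were 1 with the filter at the 75th percentile, which removes the dim Per3, and the count was 1 at 2-fold and 4 at the smaller size. The 3 lower ones were 0 at 2-fold. Leaving out shared-transcript suffixes removes Bmal1, and the activators' median became -0.51, the gap between repressors and activators 1.06 and the median of the ROR element list -0.45. With the mean over probe sets the median was 0.37 for the repressors and 0.31 for the E-box list. With the filter at the 75th percentile, which leaves fewer genes, the E-box list had 1 higher and 0 lower, the secondary loop list 0 higher, the turnover list 0 lower, the cofactor list 0 higher and the Per signal list 1 higher. Without a filter the secondary loop list had 1 lower and the cofactor list 5 lower. Cofactors were 2 higher and 1 lower with the mean over probe sets, and 5 lower with centred arrays. The Per signal list had 1 higher with centred arrays or with 16 added. Centring moved the median of all measured genes from -0.01 to -0.09 and the share of higher genes among those beyond 1.5-fold from 48.3% to 37.5%. A sample could not be left out with 1 array per group. No paired analysis was possible because each group holds 1 array. Below the floor of 12.8, signals carry no usable difference, which touches Per1 and the second probe sets of Per2 and Per3.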
